A study of Mus musculus with 6 samples.

Results

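The Toll-like receptor family was followed here through 10 of its genes, Tlr1, Tlr2, Tlr3, Tlr4, Tlr6, Tlr7, Tlr8, Tlr9, Tlr12 and Tlr13. They were chosen by name, as rows of the deposited table whose gene identifier carries one of these symbols in GENCODE release M21. All 10 were among the 24906 genes listed, and all 10 were among the 15564 genes with enough reads to be tested. Polyadenylated RNA had been sequenced from the spleen cells of 6 mice, all C57BL/6J and all 12 to 16 months old, with 1 library per mouse. In the D3TA group were 3 mice carrying a CRISPR/Cas9 knock-in of Ccnd3, the cyclin D3 gene, that puts alanine in place of threonine 283. The WT group held 3 wild-type mice of matching age. Per the series record, the line is kept as heterozygous knock-in and D3TA mice of this age have severe myeloproliferative neoplasm, an overgrowth of myeloid blood cells. The substitution is carried in the germ line and is not restricted to one cell type. The comparison asks whether transcripts of these receptors differ between the spleens of such mice and of WT mice.

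Toll-like receptors are membrane proteins that bind molecules typical of microbes through an outer domain of leucine-rich repeats and signal through an inner TIR domain. Those at the cell surface bind bacterial lipids, lipoproteins and lipopolysaccharide, and those in endosomes bind nucleic acids that arrive with digested microbes or dying cells. Signals pass through the adaptors MyD88 and TRIF to NF-kB and interferon regulatory factors, which switch on cytokine genes. In the spleen, B cells, dendritic cells, macrophages, monocytes and neutrophils carry different sets of these receptors.

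Among the receptors, Tlr1 and Tlr6 lie side by side on chromosome 5 and are related in sequence. They are the only pair of members whose transcripts share a run of 100 bases, which bears on how far their counts can be told apart. The longest run they share is 229 bases in the coding exon of each gene, at chr5:64925537-64925765 in Tlr1 and chr5:64953828-64954056 in Tlr6 (GRCm38, minus strand, GENCODE M21 transcripts). It is printed 5′ to 3′ in lower case, without capitals, since both genes hold every base of it.
Tlr1 and Tlr6: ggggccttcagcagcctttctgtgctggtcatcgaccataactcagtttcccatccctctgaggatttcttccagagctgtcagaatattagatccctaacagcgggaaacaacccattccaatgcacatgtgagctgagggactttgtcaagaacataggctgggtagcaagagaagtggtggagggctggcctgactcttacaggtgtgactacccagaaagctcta
Of the stretches of 100 bases in the Tlr1 transcript, 8.85% also occur in that of Tlr6, and 7.24% of those of Tlr6 occur in Tlr1. The 2 transcripts share 259 such stretches, not all of which lie inside the printed run. A read that falls wholly inside such a stretch cannot by its own letters be assigned to 1 of the 2 genes. Their counts are uncertain by what the counting made of those reads. The length of 100 bases was set for the search and not taken from the reads. The next longest run between any members was 18 bases, between Tlr4 and Tlr6.

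The promoters of Tlr8, Tlr9 and Tlr13 are shown because these genes had the largest differences between groups or the largest spread within them. Each window holds 300 bases, from 250 before to 50 after the annotated start, from RefSeq on GRCm38.p6. Capitals mark GAGGAA, searched here as 1 form of the ETS family motif, on either strand, and in Tlr9 also the AP-1 element TGACTCA.
Tlr8 (chrX:167264280-167264579, minus strand): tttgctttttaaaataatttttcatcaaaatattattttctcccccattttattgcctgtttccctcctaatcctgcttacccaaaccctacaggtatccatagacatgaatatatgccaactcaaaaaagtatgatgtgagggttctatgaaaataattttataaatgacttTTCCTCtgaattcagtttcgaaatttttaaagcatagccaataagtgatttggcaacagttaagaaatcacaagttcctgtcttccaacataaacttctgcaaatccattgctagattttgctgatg
Tlr9 (chr9:106222348-106222647, plus strand): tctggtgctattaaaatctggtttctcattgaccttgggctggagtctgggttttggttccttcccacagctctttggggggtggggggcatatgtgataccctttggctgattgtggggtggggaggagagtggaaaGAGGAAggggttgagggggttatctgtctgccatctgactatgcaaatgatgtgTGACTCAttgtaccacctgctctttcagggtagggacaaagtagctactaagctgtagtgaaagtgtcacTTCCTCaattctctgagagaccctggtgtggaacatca
Tlr13 (chrX:106143025-106143324, plus strand): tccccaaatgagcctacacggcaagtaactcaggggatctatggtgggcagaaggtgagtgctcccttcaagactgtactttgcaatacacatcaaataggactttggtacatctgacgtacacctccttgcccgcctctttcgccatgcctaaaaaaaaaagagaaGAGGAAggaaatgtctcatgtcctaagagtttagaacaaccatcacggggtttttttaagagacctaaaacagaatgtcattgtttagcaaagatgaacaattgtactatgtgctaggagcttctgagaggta
Of the members, 8 matched a promoter in that table by symbol, with 10 windows between them. GAGGAA occurred in 4 of the 10 windows (Tlr1, Tlr8, Tlr9 and Tlr13), and in 28.3% of all 32851 promoters. Shorter or other forms of the ETS family motif were not searched, and unmarked windows can hold them. The AP-1 element occurred in 1 of the 10 and in 5.20% of all promoters. A match is a description of the letters and not a site.

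Values are normalized read counts, that is, reads per gene after the authors scaled each library. Differences are D3TA minus WT on the scale of log2(normalized count + 1), with limma's moderated standard error, and p-values are 2-sided. Positions are on GRCm38 from GENCODE M21. Where 3 values are given for a group, they follow the replicate numbers 1, 2 and 3. The libraries held 14944622 to 19456838 reads assigned to genes, and 3 reads corresponded to a normalized count of 2.59 to 3.36. Hemoglobin transcripts took 6.39% to 6.75% of reads in D3TA-1, D3TA-2 and WT-3, but 1.40% to 1.91% in D3TA-3, WT-1 and WT-2. Y-linked transcripts were at a summed level of 2355 in D3TA-3 and 2628 in WT-1, and at 20.1 or below in the other 4 libraries. In WT-2, 8449 genes were listed at 0, and in each other library 3193 to 5170. All 8 B cell markers and all 9 red pulp macrophage markers were above 3 reads in every library. The labels give no litter, batch or day for the mice. The library names of D3TA-1 and D3TA-2 end in F and that of D3TA-3 in ILE, which the labels do not explain. The p-values measure the spread between these mice.

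No Toll-like receptor was called as different between D3TA and WT spleens. At a Benjamini-Hochberg adjusted p under 0.05 in limma, 0 of the 10 members were called, as were 0% of the 15564 genes tested. The smallest adjusted p of any gene in limma was 0.0945. The neutrophil marker Mpo, at a fitted ratio of D3TA to WT of 20.8, had that adjusted p and was not called either. The lack of a call therefore does not show that a receptor is unchanged. At an unadjusted p under 0.05 there were also 0 members, against 6.08% of tested genes higher and 3.83% lower in D3TA, or 9.91% in either direction. edgeR's quasi-likelihood test and DESeq2 on recovered reads also called 0 members. Of all tested genes edgeR called 0 and DESeq2 472, and 1542 had an unadjusted p under 0.05 in limma. For 0 members did the 3 D3TA values lie wholly above or below the 3 WT values, against 8.18% of tested genes above and 6.84% below. Of the members, 6 lay above 0 and 4 below, with a median difference of 0.06, where 54.5% of all tested genes lay above 0 and 45.5% below, with a median that was also 0.06. The members' differences ran from -0.47 for Tlr1 to 1.28 for Tlr8.

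**Figure D1:**
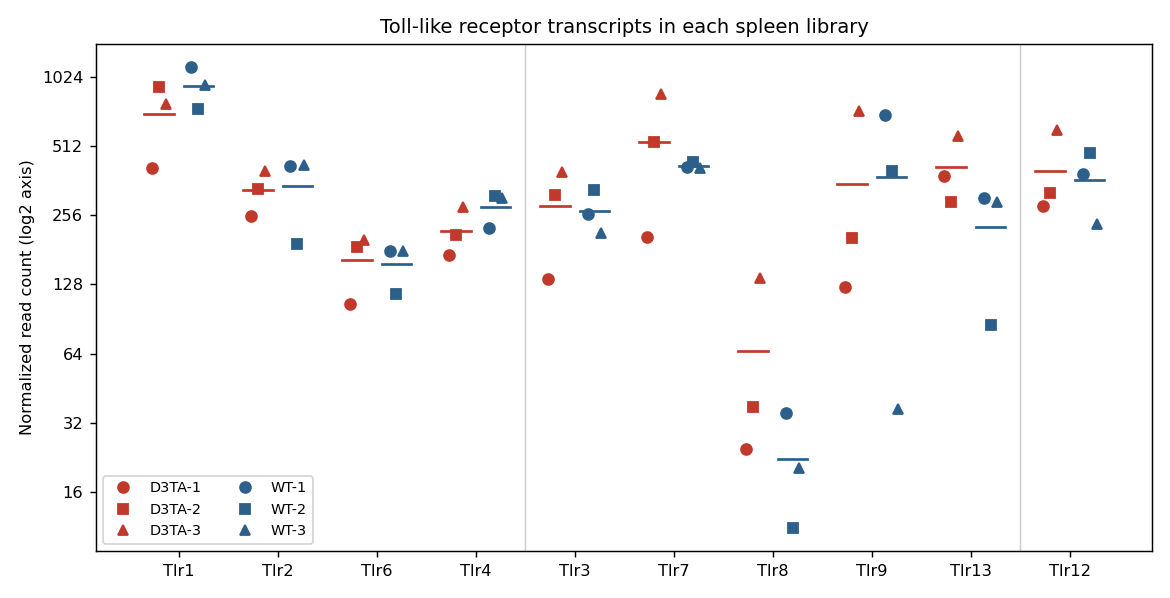
Normalized read count (log2 axis) of each receptor gene in each library, with D3TA left of WT for each gene and a bar at each group's mean; the grey lines part surface receptors, nucleic acid receptors and Tlr12. The groups overlap for every gene, and the D3TA-3 triangle is the highest point for 7 of the 10, a count not made over all tested genes.

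Of the 4 surface receptors 1 lay above 0 and 3 below, at a median of -0.18, and none passed. Tlr2 (ENSMUSG00000027995, chromosome 3, 83836272 to 83841767, minus strand), which senses bacterial lipoproteins together with Tlr1 or Tlr6, was at 255, 331 and 397 in D3TA and at 417, 192 and 422 in WT. The D3TA values lay between the lowest and the highest WT value. Its difference was -0.01 ± 0.39 (SE), with a 95% interval from a 0.547-fold to a 1.81-fold level and an adjusted p of 0.996 in limma.

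Tlr1 (ENSMUSG00000044827, chromosome 5, 64924679 to 64933563, minus strand), the partner of Tlr2 for triacylated lipoproteins, was at 412, 921 and 777 in D3TA and at 1127, 741 and 937 in WT. D3TA-1 was the lowest library, and the other D3TA values lay within the WT range. Tlr1 averaged 704 ± 262 in D3TA mice and 935 ± 193 in WT mice (SD, n = 3 each), with a difference of -0.47 ± 0.35 (SE) and an adjusted p of 0.701 in limma. Leaving out D3TA-1 gave -0.12 for Tlr1. Tlr6 (ENSMUSG00000051498, chromosome 5, 64952031 to 64960097, minus strand), the partner for diacylated lipoproteins, was at 105, 186 and 199 in D3TA and at 178, 116 and 178 in WT. Its difference was 0.03 ± 0.41 (SE) at an adjusted p of 0.987 in limma. Both genes carry the uncertainty of the stretches they share.

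Tlr4 (ENSMUSG00000039005, chromosome 4, 66827584 to 66930284, plus strand), the receptor for lipopolysaccharide of Gram-negative bacteria, was at 171, 209 and 277 in D3TA and at 224, 309 and 303 in WT. D3TA-3 lay among the WT values and the other D3TA libraries below them. Tlr4 averaged 219 ± 53.3 in D3TA mice and 279 ± 47.2 in WT mice (SD, n = 3 each), a difference of -0.36 ± 0.35 (SE), and limma gave an adjusted p of 0.763. Its 95% interval ran from a 0.458-fold to a 1.32-fold level, and without D3TA-1 the difference was -0.20.

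Of the 5 endosomal receptors for nucleic acids 4 lay above 0 and 1 below, at a median of 0.28, and none passed. Tlr7 (ENSMUSG00000044583, chromosome X, 167304929 to 167330558, minus strand), which senses single-stranded RNA, was at 205, 531 and 859 in D3TA and at 414, 434 and 410 in WT. The WT mice lay within 1.06-fold of each other, whereas the highest D3TA value was 4.20-fold the lowest, and the D3TA values lay on both sides of the WT values. Its difference was 0.11 ± 0.47 (SE), and limma gave an adjusted p of 0.954. The Tlr7 difference was -0.34 without D3TA-3 and 0.69 without D3TA-1.

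Tlr8 (ENSMUSG00000040522, chromosome X, 167242696 to 167264329, minus strand), the neighbour of Tlr7, was the scarcest member. It was at 24.6, 37.4 and 136 in D3TA and at 35.3, 11.2 and 20.3 in WT. The D3TA-3 value rested on 157 reads and the WT-2 value on 10. D3TA-3 stood far above the other libraries, which overlapped. Tlr8 had the largest difference of the members, 1.28 ± 0.78 (SE), with a 95% interval from a 0.731-fold to an 8.04-fold level and an adjusted p of 0.637 by limma. Leaving out D3TA-3 gave 0.57.

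Tlr13 (ENSMUSG00000033777, chromosome X, 106143204 to 106160493, plus strand), which senses bacterial ribosomal RNA in mice, had the smallest p of the members. It was at 378, 292 and 568 in D3TA and at 305, 85.1 and 293 in WT. D3TA-2 lay just below WT-3, and WT-2 stood far below the other libraries. Tlr13 averaged 413 ± 141 in D3TA mice and 228 ± 124 in WT mice (SD, n = 3 each). The fitted ratio of D3TA to WT was 2.01, a difference of 1.01 ± 0.51 (SE), with an unadjusted p of 0.0739 and an adjusted p of 0.555 in limma. Without WT-2 the difference was 0.41.

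Tlr3 (ENSMUSG00000031639, chromosome 8, 45395665 to 45411080, minus strand), the receptor for double-stranded RNA, was at 135, 313 and 394 in D3TA and at 258, 328 and 214 in WT. D3TA-1 was the lowest and D3TA-3 the highest of the 6. Its mean was 281 in D3TA and 266 in WT, while its log2 difference was -0.04 ± 0.44 (SE), so mean and fitted difference have opposite signs. limma gave an adjusted p of 0.982, and edgeR and DESeq2 put the difference at 0.07 and 0.08. An antisense gene, Gm45542, overlaps Tlr3 in the annotation, and no strand-marking step is described.

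**Figure D2:**
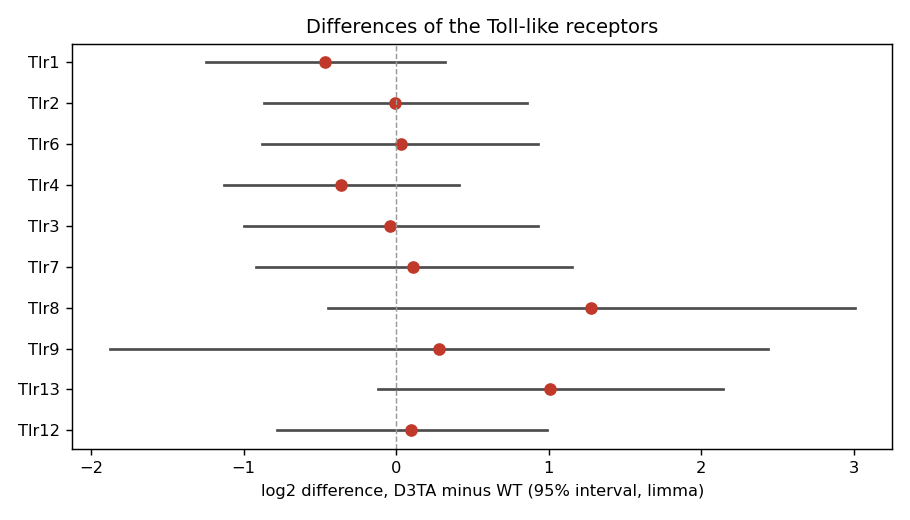
Difference of each receptor gene between D3TA and WT, as log2 D3TA minus WT, with the 95% interval from limma as a line. Every interval crosses 0; Tlr9 has the widest, and Tlr13, at 1.01, comes nearest to lying wholly above 0.

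Tlr9 (ENSMUSG00000045322, chromosome 9, 106222598 to 106226883, plus strand), the receptor for unmethylated CpG DNA, had the widest spread of all members. It was at 125, 204 and 724 in D3TA and at 694, 398 and 36.7 in WT. The highest WT library was 18.9-fold the lowest and the highest D3TA library 5.78-fold the lowest. Its mean was 351 ± 326 in D3TA mice and 377 ± 329 in WT mice (SD, n = 3 each), while the log2 difference was 0.28 ± 0.98 (SE), so the signs differ here too. limma gave an adjusted p of 0.946, and edgeR and DESeq2 both put the difference at -0.10. The 95% interval ran from a 0.271-fold to a 5.44-fold level, and the difference was -0.44 without D3TA-3 and -0.99 without WT-3.

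The Tlr9 libraries separated by hemoglobin share and not by genotype. The 3 libraries with a high share had 36.7 to 204, and the 3 with a low share had 398 to 724. Among high-share libraries Tlr9 averaged 165 in D3TA-1 and D3TA-2 and was at 36.7 in WT-3, a difference of 2.09. Among low-share libraries it was at 724 in D3TA-3 and averaged 546 in WT-1 and WT-2, a difference of 0.46. With a term in limma for a hemoglobin share above or below 5%, the Tlr9 difference was 1.28. Its unadjusted p in limma was then 0.0189 and its adjusted p 0.456. That term is the same split by which the Tlr9 values lay apart. Tlr12 also lay apart by share, at 235 to 318 in the high-share and 385 to 599 in the low-share libraries, while the other 8 members overlapped. Of all tested genes, 10% lay wholly lower in the high-share libraries and 10.7% wholly higher. Among the pathway genes, named after their values were seen, Pik3ap1 was at 212 to 260 in high-share and 678 to 1179 in low-share libraries. Ticam1 was at 247 to 294 in high-share and 378 to 590 in low-share libraries. Others also lay wholly lower in the high-share libraries, such as Relb, Nfkb1, Nfkb2 and Rela. Some lay wholly higher there, such as Tab1, at 388 to 886 against 287 to 341. The pathway genes lying apart in either direction were not counted. The part of whatever separates these libraries in the Tlr9 values was not tested.

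**Figure D3:**
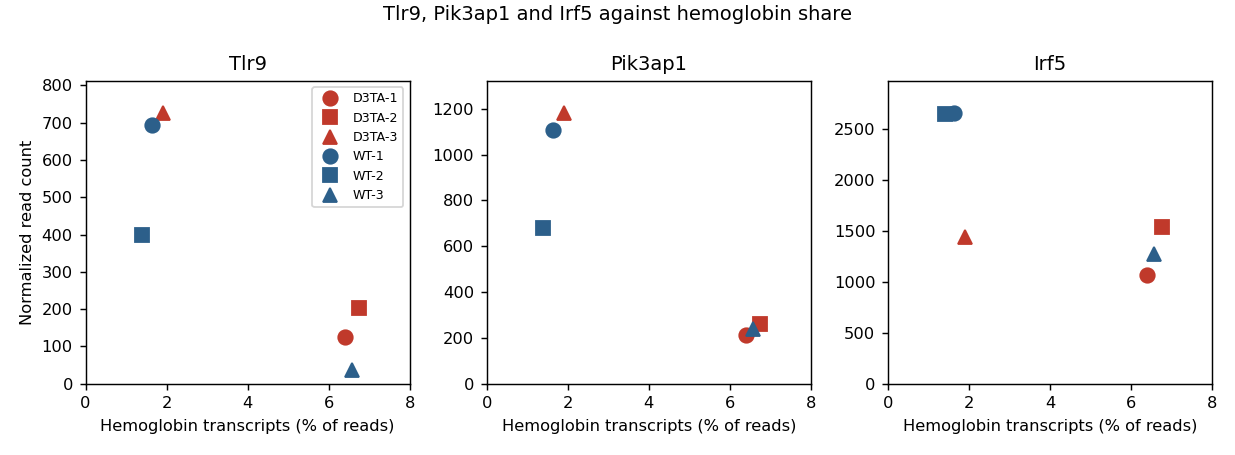
Normalized read count of Tlr9, Pik3ap1 and Irf5 (chosen after their values were seen) against the percentage of reads from hemoglobin genes, 1 point per library, D3TA in red and WT in blue. For Tlr9 and Pik3ap1 the 3 libraries above 6% lie below the 3 libraries under 2%, with both genotypes on each side; Irf5 is at 1063 to 1540 on the right and 1441 to 2651 on the left.

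Tlr12 (ENSMUSG00000062545, chromosome 4, 128615443 to 128618619, minus strand), which in mice binds profilin of protozoan parasites together with Tlr11, was at 280, 318 and 599 in D3TA and at 385, 476 and 235 in WT. D3TA-3 was the highest library and WT-3 the lowest. Its difference was 0.10 ± 0.40 (SE), and limma gave an adjusted p of 0.952. The mouse family has further members that are not in the list of 10. Tlr11 averaged 112 ± 51.8 in D3TA mice and 115 ± 15.5 in WT mice (SD, n = 3 each), a difference of -0.12 ± 0.45 (SE). Tlr5, the flagellin receptor, averaged 21.4 ± 13.8 in D3TA mice and 20.4 ± 16.0 in WT mice (SD, n = 3 each).

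Per kilobase of merged exons, Tlr1 was the most abundant member in both groups, at 210 ± 78.4 in D3TA mice and 279 ± 57.7 in WT mice (SD, n = 3 each). Its WT values lay above those of the next gene in WT, Tlr12 at 115 ± 38.3 per kilobase. Tlr7 came next in D3TA at 130 ± 80.2 per kilobase, followed by Tlr12 at 126 ± 54.9. In D3TA, Tlr2, Tlr9 and Tlr13 followed at 109, 101 and 95.9 per kilobase, and then Tlr3 at 53.9, Tlr6 at 43.8 and Tlr4 at 39.4. In WT, Tlr2, Tlr9 and Tlr7 lay at 114, 108 and 103 per kilobase, and Tlr13, Tlr3, Tlr4 and Tlr6 at 52.9, 51.2, 50.2 and 42.2. Tlr8 was last in both, at 18.4 ± 17.0 in D3TA and 6.21 ± 3.4 per kilobase in WT. In D3TA the ranges of every pair of neighbours in this order overlapped. In WT only Tlr1 and Tlr12, Tlr7 and Tlr13, and Tlr6 and Tlr8 were neighbours whose ranges did not overlap.

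The members also differed by library within each group. D3TA-3 had the highest value for 7 of the 10 members, and D3TA-1 the lowest for 5, counts that were not made over all tested genes. The mean log2 value of the 10 members, each centred on its own mean, was -0.56, 0.07 and 0.78 in D3TA and 0.28, -0.26 and -0.31 in WT. By this mean the D3TA mice spanned a wider range than the WT mice, and the spread over all tested genes was not set beside it. For the 5 nucleic acid receptors these means were -0.58, 0.12 and 1.25 in D3TA and 0.34, -0.42 and -0.72 in WT. For the 4 surface receptors they were -0.58, 0.08 and 0.20 in D3TA and 0.24, -0.23 and 0.29 in WT. Without D3TA-3, 2 of the 10 members lay above 0, at a median of -0.29, and without D3TA-1, 8 did, at a median of 0.37. The medians over all tested genes in the same fits were 0.05 and 0.06.

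All 3 X-linked members, Tlr7, Tlr8 and Tlr13, were highest in D3TA-3, 1 of the 2 libraries with Y-linked reads. So were Tlr3, Tlr6, Tlr9 and Tlr12, which are not X-linked. Between these 2 libraries, D3TA-3 and WT-1, the differences were 1.05 for Tlr7, 1.91 for Tlr8 and 0.90 for Tlr13. Between the 2 D3TA and the 2 WT libraries with no or few Y-linked reads they were -0.35, 0.96 and 1.07. With a term for Y-linked reads in limma, Tlr13 had an unadjusted p of 0.0542 and Tlr8 of 0.0721, and neither passed.

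By the root mean square difference of centred log2 values over the 6 libraries, the members most alike were Tlr2 and Tlr6 (0.215), Tlr3 and Tlr7 (0.232) and Tlr1 and Tlr6 (0.286), the last of which share the stretch printed above. For Tlr13, the member above 0 with the smallest p, the most alike of all tested genes were Plekhh2 (0.116), Frzb (0.168) and Tom1 (0.177). The median over all tested genes was 0.964. For Tlr1, the member below 0 with the smallest p, they were Galnt12 (0.139), Zfp354c (0.142) and Meis3 (0.147), against a median of 0.676.

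Markers of cells known to carry these receptors had the following levels in the same libraries. The summed level of 8 B cell markers was 10747, 35527 and 28504 in D3TA and 69998, 66759 and 56877 in WT, and all 8 lay below 0. The summed level of 12 neutrophil markers was 459131, 434884 and 83027 in D3TA and 12846, 12925 and 28511 in WT, and all 12 lay above 0. For 7 monocyte markers the sums were 10579, 11538 and 12730 in D3TA and 9174, 6099 and 8908 in WT, with 4 of the 7 above 0. For 7 plasmacytoid dendritic cell markers the sums were 2752, 4717 and 6604 in D3TA and 5126, 7363 and 6652 in WT, with all 7 below 0. For 9 red pulp macrophage markers they were 22964, 36775 and 48411 in D3TA and 38175, 34504 and 74916 in WT. For 6 markers of type 1 conventional dendritic cells they were 2576, 3563 and 5390 in D3TA and 3536, 2796 and 4242 in WT. Mmp8 of the neutrophil list and Cd209d of the plasmacytoid dendritic cell list were at 3 reads or fewer in at least 1 library. The other markers of these lists were above that in every library. In such bulk samples fewer cells of a type and less RNA per cell cannot be told apart, and the part of these levels in the receptor values was not tested.

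Set against a marker sum of the same library, the receptors' order between groups depended on which sum was used. These ratios were chosen after the values were seen and have no test. Against the B cell sum, 9 of the 10 members lay wholly above WT in D3TA, as did 66.8% of all tested genes, and 0 lay wholly below, against 0.206% of them. Tlr7, for example, was at 19.0, 15 and 30.1 per 1000 of that sum in D3TA and at 5.91, 6.50 and 7.20 in WT. Tlr9 was the member that overlapped, at 11.7, 5.74 and 25.4 in D3TA and 9.92, 5.97 and 0.646 in WT. Against the monocyte sum, Tlr1, Tlr2, Tlr4 and Tlr6 lay wholly below WT in D3TA, as did 24.6% of all tested genes, and 0 members lay wholly above, against 1.79% of them. Tlr2 was at 24.1, 28.7 and 31.2 per 1000 of the monocyte sum in D3TA and at 45.5, 31.6 and 47.4 in WT. Tlr4 was at 16.2, 18.1 and 21.7 in D3TA and at 24.5, 50.6 and 34.1 in WT. Such a ratio does not say which of its parts differs.

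**Figure D4:**
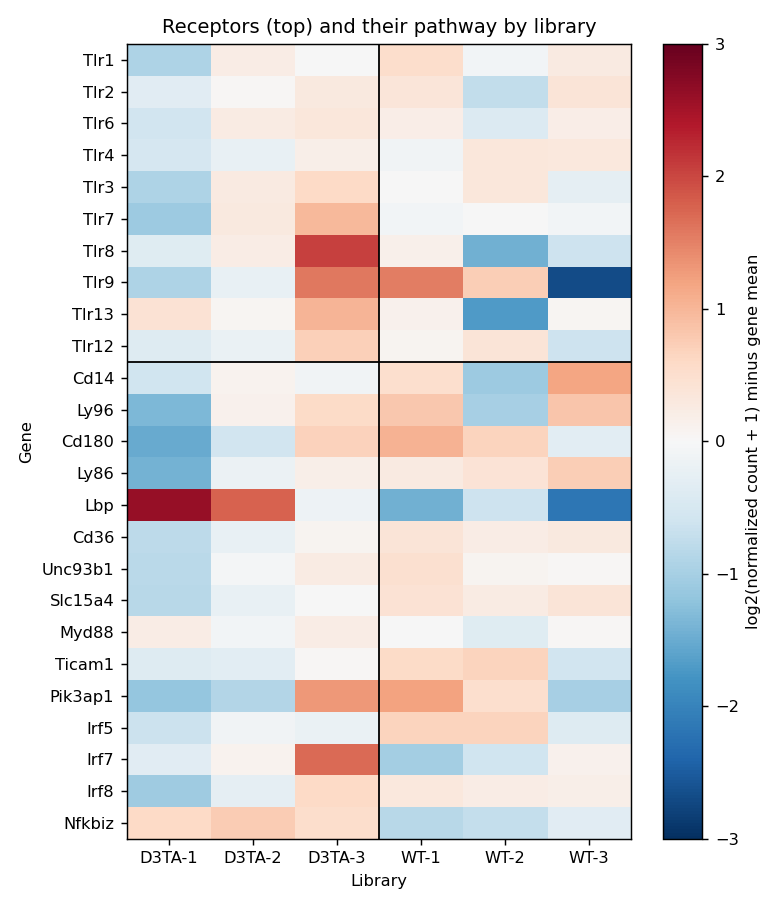
Each gene's log2(normalized count + 1) minus its mean over the 6 libraries, D3TA libraries left and WT libraries right, for the 10 receptors (above the line) and 15 pathway genes picked for display. Tlr8 stands out as high in D3TA-3 and Tlr9 as low in WT-3; Nfkbiz and Lbp are higher in every D3TA library than in any WT library.

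Co-receptors present bacterial products to the surface receptors. Of 6 co-receptor genes 5 lay below 0, at a median of -0.52. Lbp, whose product carries lipopolysaccharide to CD14, was at 684, 385 and 100 in D3TA and at 40.1, 71.6 and 24.2 in WT. The groups did not overlap. The fitted ratio of D3TA to WT was 7.09, a difference of 2.83 ± 0.69 (SE), with an unadjusted p of 0.00200 and an adjusted p of 0.232 in limma. DESeq2 called it (adjusted p 0.000122), as did limma without D3TA-3 (0.00841). The Lbp difference was 4.35 among high-hemoglobin libraries (2 D3TA and 1 WT) and 0.89 among low-hemoglobin libraries (1 D3TA and 2 WT). Here and for the genes below, each such difference rests on 1 library in 1 of the groups. The neutrophil marker sum had the same order as Lbp among the D3TA libraries but not among the WT libraries, where WT-3 had the highest sum and the lowest Lbp. Its part in the Lbp values was not tested.

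Ly86, which encodes MD-1, the partner of the B cell receptor RP105, was at 1035, 2423 and 3085 in D3TA and at 3333, 3646 and 4628 in WT. All 3 D3TA values lay below WT, with a difference of -0.95 ± 0.40 (SE), an unadjusted p of 0.0376 and an adjusted p of 0.467 in limma. The difference was -1.55 among high-hemoglobin and -0.18 among low-hemoglobin libraries, and the B cell marker sums given above were also below WT in each D3TA library, whose part was not tested. Without D3TA-1 the Ly86 difference was -0.49. Cd14 averaged 263 ± 62.8 in D3TA mice and 408 ± 265 in WT mice, and Ly96, which encodes the MD-2 partner of Tlr4, averaged 82.5 ± 46.7 in D3TA mice and 112 ± 61.5 in WT mice (SD, n = 3 each). Neither passed, with adjusted p values of 0.841 and 0.862 in limma.

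Genes listed for trafficking and processing of the receptors or of the nucleic acids they bind had 11 of 14 members below 0, at a median of -0.38. Slc15a4, a lysosomal transporter needed for Tlr7 and Tlr9 signals, was at 536, 818 and 944 in D3TA and at 1302, 1140 and 1252 in WT. All D3TA values lay below WT, with a difference of -0.72 ± 0.30 (SE), an unadjusted p of 0.0357 and an adjusted p of 0.459 in limma. Ctsk, a cathepsin, had a difference of -0.79 and an unadjusted p of 0.106. Unc93b1, which carries the nucleic acid receptors to endosomes, was at 3271, 5488 and 6844 in D3TA and at 8048, 6067 and 5869 in WT, with overlapping groups. Rnaset2a and Rnaset2b are close paralogs, so the split of reads between them is uncertain.

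Of 5 tested adaptor genes 2 lay above 0, at a median of -0.07. Myd88, the adaptor of nearly all these receptors, was at 1149, 932 and 1151 in D3TA and at 974, 764 and 1012 in WT, a difference of 0.24 ± 0.27 (SE). Its 95% interval ran from a 0.773-fold to a 1.80-fold level, and without WT-2 the difference was 0.11. Ticam1, the gene for TRIF, which serves Tlr3 and Tlr4, had a difference of -0.45 and an adjusted p of 0.732 in limma. The Ticam1 difference was 0.22 among high-hemoglobin and -0.59 among low-hemoglobin libraries, -0.19 with the hemoglobin term, -0.28 without WT-1, -0.23 without WT-2 and -0.85 without WT-3. Sarm1 was too low to be tested.

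Kinases and ubiquitin ligases had 11 of 18 tested genes above 0, at a median of 0.23. Tab3, a partner of the kinase TAK1, was at 819, 418 and 259 in D3TA and at 251, 184 and 151 in WT. D3TA-3 lay just above WT-1. Its difference was 1.22 ± 0.44 (SE), with an unadjusted p of 0.0192 and an adjusted p of 0.408 in limma, and it was 1.95 among high-hemoglobin and 0.27 among low-hemoglobin libraries. Without D3TA-1 the Tab3 difference was 0.78. Peli1, a ubiquitin ligase, was at 852, 1318 and 1060 in D3TA and at 1474, 3463 and 1280 in WT, a difference of -0.82 with an unadjusted p of 0.0626. Without WT-2 it was -0.37.

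Transcription factors had 9 of 10 genes below 0, at a median of -0.52. Relb was at 519, 1006 and 1330 in D3TA and at 1787, 1593 and 1317 in WT, with D3TA-3 just above WT-3. Its difference was -0.81 ± 0.36 (SE) and its adjusted p 0.504 in limma, and without D3TA-1 it was -0.43. The gene above 0 was Irf7, which drives interferon genes downstream of Tlr7 and Tlr9. It was at 1103, 1495 and 4481 in D3TA and at 686, 924 and 1528 in WT. D3TA-3, the library with the highest Irf7, was also the highest for 7 of the 10 receptors. A link between Irf7 and any receptor was not tested. The Irf7 difference was 0.98 ± 0.50 (SE), and limma gave an adjusted p of 0.567. It was -0.25 among high-hemoglobin and 2.49 among low-hemoglobin libraries, and 0.38 without D3TA-3.

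Of 11 inhibitor genes 9 lay below 0, at a median of -0.19. Nfkbia, the NF-kB inhibitor that NF-kB itself induces, was at 1621, 2385 and 2452 in D3TA and at 2960, 2711 and 3919 in WT. The groups did not overlap, and the difference of -0.58 ± 0.30 (SE) had an adjusted p of 0.568 in limma. Leaving out D3TA-1 gave -0.38 for Nfkbia. Il1rl1, the interleukin-33 receptor, was at 669, 184 and 111 in D3TA and at 99.3, 125 and 110 in WT, a difference of 1.10 with an unadjusted p of 0.0915. Without D3TA-1 it was 0.36, and it was 1.66 among high-hemoglobin and -0.01 among low-hemoglobin libraries. Without D3TA-1, 6 of the 11 lay above 0 instead of 2.

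Genes that these receptors induce had 13 of 17 tested members above 0, at a median of 0.31. Without D3TA-3 there were 9 above 0 and 8 below, at a median of 0.04, and without D3TA-1 14 above at a median of 0.74. Nfkbiz, an inducible NF-kB cofactor, was at 462, 518 and 443 in D3TA and at 171, 185 and 239 in WT. The groups lay well apart, and the fitted ratio of D3TA to WT was 2.41, a difference of 1.27 ± 0.31 (SE) with an unadjusted p of 0.00207 and an adjusted p of 0.232 in limma. Its difference was 1.03 among high-hemoglobin and 1.31 among low-hemoglobin libraries, and lay between 1.17 and 1.41 under every alternative run. DESeq2 called it, at an adjusted p of 0.0336. Cxcl1, a neutrophil-attracting chemokine, was at 1.07, 4.04 and 7.78 in D3TA and at 10.5, 67.1 and 10.6 in WT, a difference of -2.21 ± 1.13 (SE) that rests on few reads in D3TA and on WT-2. Without WT-2 it was -1.36.

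**Figure D5:**
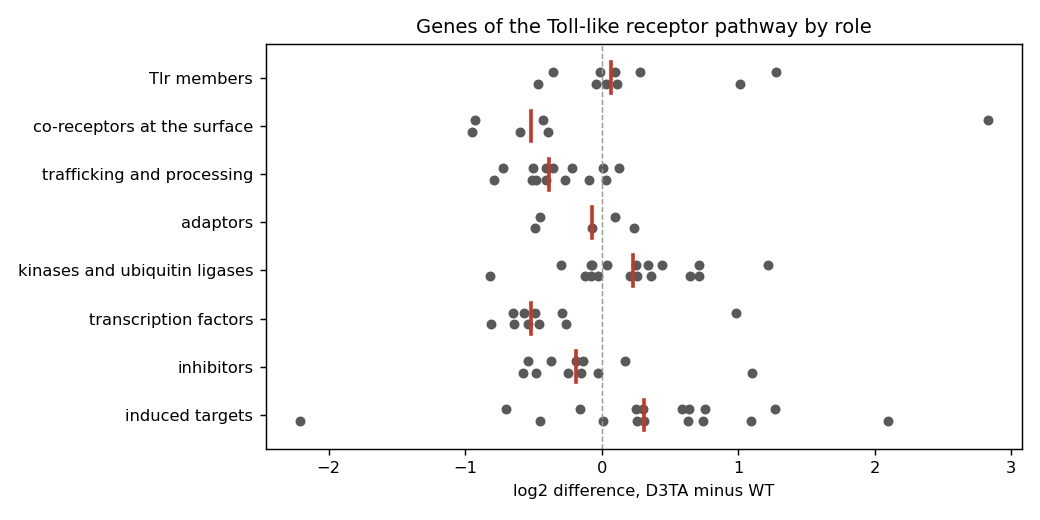
Difference of each tested gene of the pathway, as log2 D3TA minus WT, by role, with each list's median as a red bar. The receptors centre at 0.06, co-receptors and transcription factors at -0.52 and induced targets at 0.31; the co-receptor far right is Lbp, at 2.83.

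Over all 81 tested genes of the 7 pathway lists together, 33 lay above 0 and 48 below, where 54.5% of all tested genes lay above. At an unadjusted p under 0.05 there were 3 higher and 3 lower, against 6.08% and 3.83% of all tested genes. The D3TA values lay wholly above WT for 7 and wholly below for 7, against 8.18% and 6.84% of all tested genes.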

How the data were processed

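The deposited table holds a signal: reads per gene that the authors had scaled by library. This is inferred from the table, where each library's entries are multiples of what 1 read is worth; 149436 of 149436 came out whole within 0.001 reads. Per the submitters' processing notes the tools were HISAT2, DESeq2, Trim Galore, FastQC and CASAVA with build mm10, without roles; the counter is not given in the sources used here. GENCODE M21 (GRCm38, also called mm10) gave symbols for 24895 of 24906 identifiers.

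Genes at 10 or more in at least 3 libraries (15564) were fitted as log2(value + 1) with limma 3.58.1 (trend, robust), genotype only, with Benjamini-Hochberg adjustment over all of them at 0.05. Count tests on recovered reads (edgeR 4.0.16, DESeq2 1.42.0, limma-voom) were alternatives, as were other scalings, pseudocounts, no filter, left-out libraries, a replicate block and terms for Y-linked reads or hemoglobin share. The Y-linked and hemoglobin terms were classes of library, by a summed Y-linked level above 100 and a hemoglobin share above 5%. Simulated counts with known changes were used to test the limma step. The level that 3 reads give covers counting error only. Calculations used R 4.3.3, Python 3.11.15 and matplotlib 3.10.9.

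The members and lists were chosen with earlier results of these data known. Named pathway genes are the 2 with the smallest p of each list; others were named after their values were seen. Lists have counts and medians and no set test. Protein identity between members was planned and not run.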

Additional observations from a re-analysis of the deposited data

How the results depend on the processing

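No alternative called any of the 10 receptors at an adjusted p under 0.05, and at most 1 had an unadjusted p under 0.05 in any of them. The count over all genes, 0 in limma, was 44 with no filter on low values, 472 with DESeq2, 15 with the term for Y-linked reads and 11 with the term for hemoglobin share. Leaving out 1 library at a time gave 0 to 306 calls, the 306 without D3TA-3. Over 18 alternatives each, the receptors kept their direction in 159 of 180 cases and changed it in 21. Tlr1, Tlr4, Tlr8 and Tlr13 kept it in all 18, at -0.70 to -0.12, -0.54 to -0.12, 0.57 to 1.78 and 0.41 to 1.32. Scaling by library size alone gave 0.08 for Tlr2 and 0.05 for Tlr3. edgeR gave 0.07 for Tlr3 and -0.10 for Tlr9, and DESeq2 gave 0.08 for Tlr3 and -0.10 for Tlr9. The hemoglobin term gave 0.19 for Tlr3 and 0.11 for Tlr11, and leaving out D3TA-1 with WT-2 gave 0.58 for Tlr3 and 0.20 for Tlr11. The cause of these changes was not tested.

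With single libraries left out, the differences ran from -0.38 to 0.18 for Tlr2, -0.35 to 0.42 for Tlr3, -0.18 to 0.31 for Tlr6, -0.34 to 0.69 for Tlr7, -0.99 to 1.11 for Tlr9, -0.23 to 0.32 for Tlr12, -0.38 to 0.78 for Tlr5 and -0.47 to 0.16 for Tlr11. Genes above 0 ran from 1 to 2 for co-receptors (1 with all libraries), 0 to 5 for trafficking (3), 1 to 3 for adaptors (2), 11 to 14 for kinases (11), 1 to 2 for transcription factors (1), 2 to 6 for inhibitors (2) and 9 to 14 for induced targets (13, and 9 without D3TA-3).

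The labels give nothing that pairs the libraries by replicate number. The deviations from the group means of same-numbered libraries correlated at -0.0572, -0.00456 and -0.132, which cannot by itself show whether those mice were related. With the replicate block the counts stayed at 0 calls over all genes and 0 among the receptors, and Tlr13 had an unadjusted p of 0.0345. Tlr8 rests on 10 to 157 reads per library, which limits what its difference can show.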
